A study of Homo sapiens with 19 samples.

Results

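The cells described here were taken from the PA experiment of a series on human liver organoids. They were chosen by their own measured counts, as cells in which 5 liver-secreted protein genes, AFP, AMBP, AGT, FGB and SERPINA1, together gave at least 5 unique molecular identifiers (UMIs, 1 per captured RNA molecule) and at least 0.3% of all UMIs of the cell. Cells under 500 detected genes or above 20% mitochondrial UMIs were left out first. The rule chose 17165 of the 24859 cells kept in 4 libraries, out of 120240 kept cells in the 19 libraries of the series. The working name of the population was hepatocyte-like. The data went against that name in part, so the cells are called SERPINA1-high cells here after the gene that decided their choice.

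The organoids were grown from wild-type W01 cells, a human pluripotent stem cell line from WiCell, and single cells were sequenced in droplets with the 3′ version 3 kit of 10x Genomics. All 4 libraries came from organoids kept on an orbital shaker and collected on day 25, with 2 libraries treated with PA at 500 µM for 5 days after 20 days of culture and 2 libraries of a control made for PA. What the letters PA stand for, and what the control medium held, is not stated in the labels. All 4 rest on 1 cell line, and no label says whether 2 replicates came from separate cultures, so p-values measure the spread between these libraries. Dissociation of the shaker organoids included an extra wash and an added trypsin step of 10 minutes.

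Hepatocytes secrete most plasma proteins, among them albumin, transthyretin, fibrinogen and the protease inhibitor encoded by SERPINA1, and they assemble lipoproteins. Epithelial cells, hepatocytes included, answer inflammatory signals through NF-κB, a transcription factor that switches on chemokine genes, which recruit leukocytes, and genes for its own inhibitors. Liver and gut epithelium arise from neighbouring endoderm and share part of their secretory programme: SERPINA1, APOA1, APOB and FABP1 are also expressed in intestinal epithelium.

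The genes that rose most with PA in these cells included the chemokines CXCL1, CXCL2, CXCL3 and CCL20 and the NF-κB target BIRC3. The promoter stretches of these 5 genes are shown because each carries an NF-κB motif (GGG, any 2 bases, then TTTCC). The motif ends 68 or 69 bases before the RefSeq start in the 4 chemokine genes and 189 bases before it in BIRC3. The GENCODE spans given below for CXCL3 and CCL20 begin further upstream and include the motif. Sequences are RefSeq promoters of GRCh38.p14, read 5′ to 3′ on the strand of the gene, with the motif in capitals. In CCL20 and BIRC3 the match is on the opposite strand, so the reverse complement is seen.
CXCL1, chr4:73869294-73869343, plus strand: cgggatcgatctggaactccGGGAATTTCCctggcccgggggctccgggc
CXCL2, chr4:74099244-74099293, minus strand: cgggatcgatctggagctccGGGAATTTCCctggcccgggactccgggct
CXCL3, chr4:74038739-74038788, minus strand: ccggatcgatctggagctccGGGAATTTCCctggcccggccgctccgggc
CCL20, chr2:227813743-227813792, plus strand: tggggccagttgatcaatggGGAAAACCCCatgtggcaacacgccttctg
BIRC3, chr11:102317265-102317314, plus strand: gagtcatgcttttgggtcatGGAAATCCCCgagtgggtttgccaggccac
The motif was searched on both strands in the 250 bases before each start. It was in 608 of 35116 RefSeq promoters (1.73%). Of the 12 genes named below as higher with PA, 10 matched an entry (PI3 and C3 did not), and 5 of these 10 held the motif. The 3 CXCL genes are close paralogs on chromosome 4 with near-identical stretches, so their matches are not independent.

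The 4 libraries differed in depth, and both replicate 1 libraries were shallow. SERPINA1-high cells had a median of 1889 UMIs in control replicate 1, 7425 in control replicate 2, 2668 in PA replicate 1 and 6339 in PA replicate 2. The median mitochondrial share in them was 7.46% to 8.88%. No 2 libraries shared more than 22 kept barcodes, at most 0.287% of a library. Cells with mesenchymal genes (at least 5 UMIs and 0.3% of COL1A1, COL1A2, COL3A1, DCN and LUM) made 3.34% and 6.76% of control cells and 1.76% and 5.04% of PA cells. Of the SERPINA1-high cells, 4 to 35 per library met that rule too.

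SERPINA1-high cells were the majority in every library by this rule, and 41.0%, 36.6%, 40.4% and 44.7% of cells by a stricter one (at least 10 marker UMIs and 1% of UMIs). They were 2115 of 3205 kept cells in control replicate 1, a share of 66.0% (exact 95% interval 64.3% to 67.6%). In control replicate 2 they were 3876 of 5742 cells (67.5%, 66.3% to 68.7%). With PA they were 5367 of 7663 cells in replicate 1 (70.0%, 69.0% to 71.1%) and 5807 of 8249 in replicate 2 (70.4%, 69.4% to 71.4%). The intervals cover counting error only. Both PA shares were above both control shares, and the mean was 70.2% ± 0.254 with PA against 66.7% ± 1.07 in controls (SD, n = 2 each), a difference of 3.47 points. An exact two-sided permutation test over libraries gave p = 0.333, which is the smallest p that 2 against 2 libraries allow. Cells thinned to 1000 UMIs needed 5 marker UMIs and those thinned to 2000 needed 10, a higher share than 0.3%. The difference was then 2.26 points at 1000 UMIs and 0.135 points at 2000. Thinning to 2000 UMIs left out 59.7% and 21.3% of control and 36.6% and 10.8% of PA cells. Both depth and cutoff differed from the main rule, and their parts were not tested. The difference turned to -0.889 points with a stricter cell filter (at least 1000 genes and at most 10% mitochondrial UMIs).

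The rule turned on SERPINA1. It supplied 93.8% and 90.2% of the UMIs of the 5 genes in the control SERPINA1-high cells and 92.2% and 93.5% in those with PA, and it was the only one of the 5 present in 33.0%, 18.3%, 25.6% and 18.9% of them, in the order control replicates 1 and 2, PA replicates 1 and 2. AFP, the main plasma protein of fetal liver, was found in 34.9% to 53.9% of SERPINA1-high cells, AMBP in 50.7% to 64.7%, FGB in 18.9% to 30.3% and AGT in 9.22% to 24.2%. These values chose the cells and are given as a description. Without SERPINA1 the same cutoffs would have kept 334, 638, 819 and 804 cells, or 10.4%, 11.1%, 10.7% and 9.75% of kept cells.

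**Figure D1:**
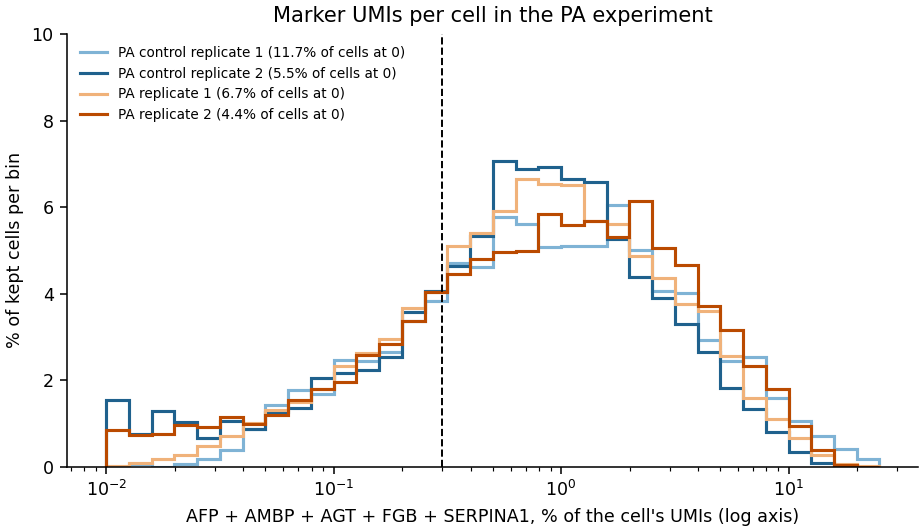
Distribution over kept cells of the share of UMIs from the 5 marker genes (x, log axis, with cells at 0 not drawn but given in the legend, and other values under 0.01% in the first bin) as the percent of cells per bin (y), 1 line per library, with the 0.3% cutoff dashed. The medians among the chosen cells were 1.49%, 1.12%, 1.23% and 1.47%, and each line has 1 broad peak with no trough at the cutoff.

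A rule of this kind cuts a range of marker content, and whether the cells form a type was not tested. Just inside the cutoff, at 0.30% to 0.35%, lay 65, 158, 194 and 228 cells, and just outside, at 0.25% to 0.30% with 5 or more marker UMIs, lay 56, 148, 179 and 237. SERPINA1 RNA was also seen in cells below the cutoff. In all shares at 1000 UMIs, mesenchymal-gene cells are only those that the rule did not choose. After thinning, 97.5% to 98.6% of SERPINA1-high cells had a SERPINA1 UMI. The shares were 45.9% to 50.1% of the other cells without mesenchymal genes and 10.4% to 19.5% of the mesenchymal-gene cells, in which the gene is not expected. The rule used SERPINA1, so it held down the shares in the cells left outside it. Median depths before thinning were 1889 to 7425 UMIs, 1506 to 6328 and 1704 to 6754 in these 3 classes.

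The label was checked against other plasma protein genes, and against gut, ductal and KRT7 epithelial markers. Levels are UMIs of a gene summed over the SERPINA1-high cells of a library and divided by all their UMIs, scaled to counts per 1000000 (CPM). Transthyretin (TTR) was at 2621 and 1877 CPM in controls and 2675 and 2525 with PA, against 504 to 688 in the other cells. The lipoprotein component APOA2 was at 1419 and 716 CPM in controls and 1315 and 1707 with PA, against 31.1 to 134 in the other cells. Vitronectin (VTN) was present at 519 to 860 CPM and the vitamin D carrier GC at 187 to 301 CPM. Albumin (ALB), the defining product of mature hepatocytes, was at 44.8 and 60.02 CPM in controls and 81.2 and 118 with PA. At 1000 UMIs only 2.08% to 2.94% of SERPINA1-high cells had an ALB UMI, against 0.101% to 0.303% of the other cells. None of 97, 349, 115 and 382 mesenchymal-gene cells had one, which allows shares of up to 3.73%, 1.05%, 3.16% and 0.961% (upper exact 95% bounds).

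Several defining hepatocyte products were at or near 0 in these cells. Transferrin (TF) was at 0.227 to 0.611 CPM, AHSG at 0 to 0.0932, SERPINC1 at 0 to 0.183, and FETUB had no UMI in any of the 4 libraries. Among metabolic genes, CYP7A1, the rate-limiting enzyme of bile acid synthesis, had no UMI, the urea cycle enzyme ARG1 reached 0.204 CPM at most and CYP3A4 0.0621 CPM at most. The hepatocyte regulator HNF4A was present at 39.4 to 52.5 CPM, against 18.3 to 30.1 CPM in the other cells.

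Gut epithelial markers stood beside the liver genes. The trefoil peptide TFF3 was at 951 and 580 CPM in controls and 613 and 530 with PA. PHGR1, a gene of intestinal epithelium, was at 262 and 167 CPM in controls and 147 and 495 with PA, and the gut cadherin CDH17 was at 109, 121, 70.5 and 83.2 CPM. The intestinal regulator CDX2 was at 31.6 to 55.0 CPM, close to its 35.2 to 65.4 CPM in the other cells. At 1000 UMIs, 4.56%, 4.65%, 4.21% and 3.34% of SERPINA1-high cells had a CDX2 UMI. More of the other cells without mesenchymal genes had one, at 5.62%, 7.23%, 6.15% and 4.84%. Summed over 15 gut markers, SERPINA1-high cells held 1660, 1213, 1162 and 1551 CPM and the other cells 403, 366, 434 and 398. TFF3 and PHGR1 gave most of the sum in SERPINA1-high cells. At 1000 UMIs, 32.1% to 38.2% of SERPINA1-high cells had a UMI of at least 1 gut marker, against 27.2%, 23.0%, 24.4% and 25.3% of the other cells without mesenchymal genes and 2.06% to 2.88% of mesenchymal-gene cells. Ductal and KRT7 epithelial markers, 12 genes, had larger sums, at 2731, 4252, 3161 and 4280 CPM in SERPINA1-high cells. In the other cells these sums were 1642, 2504, 2189 and 2811 CPM.

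**Figure D2:**
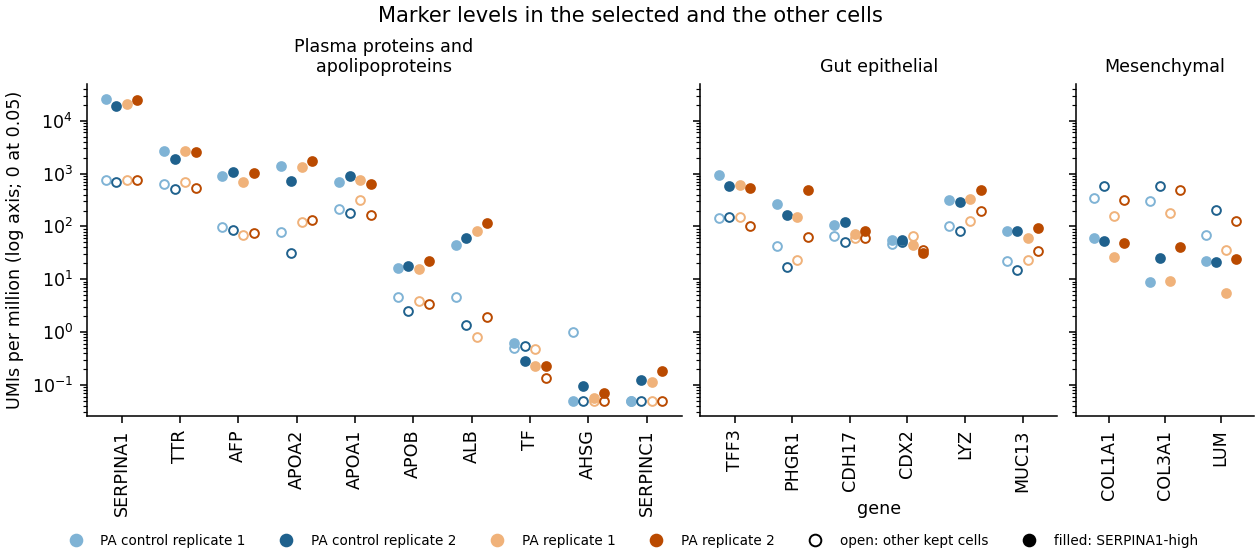
Level of 19 marker genes (x) in CPM on a log axis (y, 0 drawn at 0.05), filled points for SERPINA1-high cells and open points for the other kept cells, 1 colour per library. TTR, APOA2 and TFF3 are higher in the filled points in all 4 libraries, TF, AHSG and SERPINC1 lie at or under about 1 CPM, and the collagen genes are higher in the open points.

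Liver and gut transcripts were found in the same cells. Of SERPINA1-high cells with a UMI of TTR, which the rule did not use, 39.2% and 31.1% in controls and 25.7% and 29.7% with PA also had a UMI of TFF3, PHGR1, CDH17 or CDX2 at 1000 UMIs. Of those without a TTR UMI, 15.7%, 15.1%, 15.6% and 13.97% did. As a description, since AFP is a gene of the rule, of the cells with an AFP UMI 57.3% and 44.3% in controls and 41.8% and 42.1% with PA had a UMI of these 4 gut genes. Of those without an AFP UMI, 17.5%, 15.1%, 16.2% and 15.0% did. The few cells with an ALB UMI had a gut marker in 78.7% (37 of 47), 41.0% (41 of 100), 55.2% (58 of 105) and 76.5% (127 of 166). These shares describe the cells and were not tested.

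The 20 genes outside the rule described next had the highest ratio of their level in SERPINA1-high cells to that in the other cells, taken at its lowest over the 4 libraries. APOA2 led with a ratio of at least 11.0 in every library. The matrix protease MMP7 followed at 9.80, then the digestive protease gene PRSS2 at 6.90, the calcium-binding protein gene TESC at 6.6, PHGR1 at 6.14, MMP1 at 4.60 and TSPAN8 at 4.35. FABP1, the fatty acid-binding protein of liver and gut, TFF3, A2M, TTR, TM4SF1, DLK1, AREG, CTSE, S100A4, TCN1, PON2, LYZ and APOA1 completed the set at 2.42 to 3.96. Of the 20, 3 are on the lists of plasma proteins or apolipoproteins and 2 on the list of gut markers. MMP7 is on the list of ductal and KRT7 markers. These ratios come from the cells that the rule split, so no test was made.

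Genes differed in how they followed marker content among the SERPINA1-high cells. Cells were ranked by the share of the 5 marker genes and cut into 4 equal groups in each library. SERPINA1 went from 3358 to 3721 CPM in the lowest group to 43145 to 66120 CPM in the highest, a rise that the ranking itself fixed. The summed gut markers were highest in the third group (2479, 1865, 1787 and 2107 CPM) and were 1366, 890, 745 and 772 CPM in the highest, and TTR and FABP1 were also highest in the third group in every library. The summed acute-phase and complement genes were higher in each successive group in all 4 libraries. Complement C3 was highest in the top group in every library, at 93.2 and 72.0 CPM in controls and 385 and 292 with PA. The keratin KRT7 was higher in each successive group in all 4 libraries, from 48.3 to 76.3 CPM up to 114 to 196 CPM.

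With PA, 17 genes were called higher in SERPINA1-high cells, among them 6 of 37 tested chemokine and NF-κB genes and 3 of 22 tested acute-phase and complement genes. These lists were chosen with earlier results of these data known. Counts were summed per library and 16221 genes were tested with edgeR's quasi-likelihood test. At a Benjamini-Hochberg adjusted p under 0.05, 17 genes were higher with PA (0.105% of those tested) and 0 lower (0.0%). At an unadjusted p under 0.05, 266 genes were higher (1.64%) and 135 lower (0.832%), and DESeq2 called 38 higher and 2 lower. Both PA libraries lay above both controls in the 17 genes, as they did in 8.01% of all tested genes, and both lay below in 14.1%. Leaving out control replicate 2 gave 4 higher and 0 lower genes, and leaving out control replicate 1 gave 63 and 6. Leaving out PA replicate 1 gave 246 higher and 134 lower, and leaving out PA replicate 2 gave 81 and 29, where the lone library of a group is assumed to vary like the other group. Of the 12 genes named next, 12 kept their call without control replicate 1 or either PA library, and LCN2 and DUOXA2 kept it without control replicate 2. Both lost it in a fit of all 14 shaker libraries (adjusted p = 0.0657 and 0.0555), in which 8 of the 12 kept theirs.

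Of the chemokine genes, CCL20, CXCL1, CXCL2 and CXCL3 were called higher. CCL20 (chr2:227805739-227817564 in GENCODE v44, GRCh38), which draws CCR6-bearing lymphocytes and dendritic cells, was at 71.7 and 43.7 CPM in controls and 376 and 1036 with PA. Both PA libraries were above both controls, with PA replicate 2 well above PA replicate 1, and the log2 fold change was 3.64 (SE 0.493, adjusted p = 0.0285). CXCL1 (chr4:73869393-73871308), a neutrophil chemoattractant, was at 85.9 and 90.4 CPM in controls and 345 and 697 with PA, a log2 fold change of 2.59 (SE 0.35, adjusted p = 0.0285). Its paralog CXCL3 (chr4:74036589-74038807) was at 60.1 and 66.1 CPM against 239 and 378, and CXCL2 (chr4:74097040-74099196) at 50.7 and 51.5 CPM against 162 and 275. For these 2 the log2 fold changes were 2.32 (SE 0.293, adjusted p = 0.0238) and 2.13 (SE 0.303, adjusted p = 0.0354). The control values of each CXCL gene lay close together, and PA replicate 2 was the higher of the PA libraries for all 4 genes. How reads were divided between the near-identical CXCL genes is not given in the sources used here.

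In the rest of the chemokine and NF-κB list, BIRC3 and TNFAIP2 were called. The inhibitor of apoptosis BIRC3, an NF-κB target, rose from 9.16 and 7.89 CPM to 33.3 and 44.4 (log2 fold change 2.25, SE 0.274, adjusted p = 0.0238). TNFAIP2 rose from 17.9 and 20.8 CPM to 69.9 and 65.0 (1.83, SE 0.234, adjusted p = 0.0238). The NF-κB inhibitor gene NFKBIA was at 104 and 147 CPM in controls and 291 and 358 with PA, a log2 fold change of 1.41 that did not pass (adjusted p = 0.153). TNF itself was at 6.92 and 4.66 CPM against 17.0 and 23.5 (1.93, adjusted p = 0.0864), and CXCL8 at 33.2 and 25.4 CPM against 45.04 and 159 (1.84, adjusted p = 0.663). Of the 37 tested genes of the list, 6 were called, 36 had a positive log2 fold change and 24 an unadjusted p under 0.05, all of these higher. The median of the list was 0.88, against 0.01 over all 16221 genes, of which 51.7% had a positive log2 fold change. These values describe a list chosen with earlier results of these data known, and the list as a whole was not tested.

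**Figure D3:**
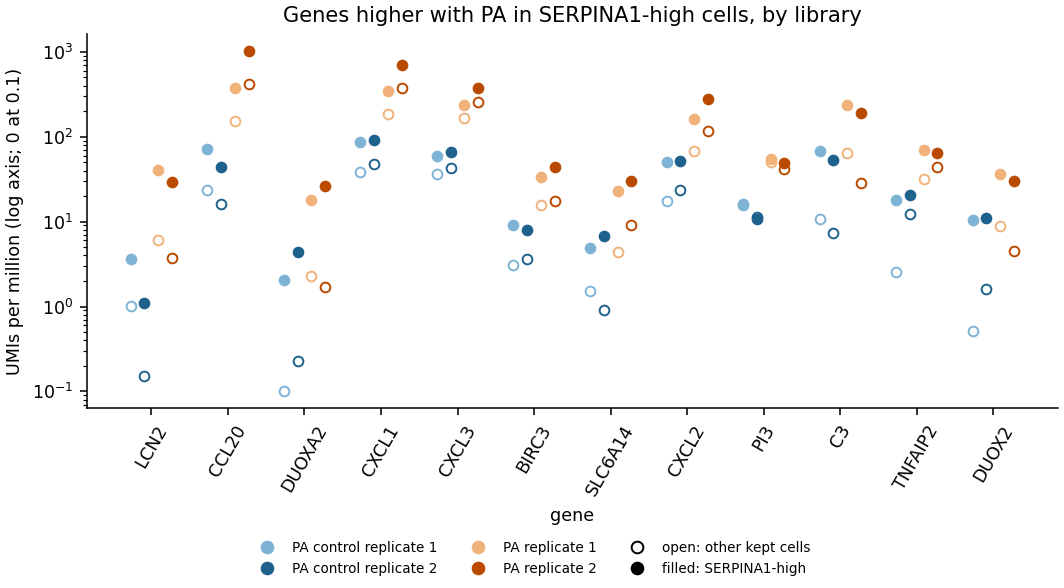
Level of the 12 genes named as higher with PA (x), in CPM on a log axis (y, 0 drawn at 0.1), by library, filled for SERPINA1-high cells and open for the other kept cells. The filled points of PA lie above those of the controls for each gene, as the choice of these genes required, and CCL20 with PA reaches 1036 CPM.

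Of the acute-phase and complement list, LCN2, C3 and SAA2 were called higher. Lipocalin 2 (LCN2, chr9:128149071-128153453), which binds bacterial siderophores, had 3.67 and 1.09 CPM in controls and 40.1 and 29.3 with PA, a log2 fold change of 4.33 (SE 0.496, adjusted p = 0.0238). Complement C3 (chr19:6677704-6730562) had 67.6 and 52.5 CPM in controls and 235 and 191 with PA (1.85, SE 0.278, adjusted p = 0.0454). The serum amyloid gene SAA2, an acute-phase apolipoprotein, had 3.26 and 0.932 CPM in controls and 22.0 and 18 with PA (3.75, SE 0.492, adjusted p = 0.0265). SAA2 and its near copy SAA1 may share reads. The protease inhibitor PI3 (elafin) rose from 16.1 and 10.7 CPM to 54.7 and 49.5 (2.03, SE 0.290, adjusted p = 0.0354). Of the 22 tested genes of the acute-phase and complement list, 3 were called, 20 had a positive log2 fold change and 8 an unadjusted p under 0.05, with a median of 0.55. Of all tested genes, 0.105% were called higher, 51.7% had a positive log2 fold change and 1.64% were higher at an unadjusted p under 0.05. The list as a whole was not tested.

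The hydrogen peroxide-producing oxidase of epithelial surfaces rose with its maturation factor. DUOX2 (chr15:45092650-45114172) was at 10.6 and 11.1 CPM in controls and 36.7 and 29.8 with PA (log2 fold change 1.65, SE 0.246, adjusted p = 0.0454). DUOXA2 (chr15:45114326-45118421), which lies beside it head to head, was at 2.04 and 4.38 CPM against 17.8 and 26.3 (2.68, SE 0.335, adjusted p = 0.0238). The amino acid transporter gene SLC6A14 was at 4.89 and 6.83 CPM against 23.2 and 29.96 (2.18, SE 0.267, adjusted p = 0.0238). Both PA libraries exceeded both controls in each case, by a wider gap than the replicates of a group differed.

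The remaining called genes, named after their values were seen because they fell under the level set for naming, were DEFA6, CA8, MIR3142HG and PTX3, beside SAA2. The Paneth cell defensin gene DEFA6 had 0 and 3 UMIs in the SERPINA1-high cells of the controls and 107 and 425 with PA, a ratio of CPM of 107 with a counting interval of 36.6 to 522. The pentraxin PTX3, a soluble pattern receptor, went from 3.46 and 3.04 CPM to 10.9 and 13.4 (1.99, SE 0.296, adjusted p = 0.0454).

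The share of cells with a UMI differed widely between the called genes. At 1000 UMIs, a UMI of CXCL1, CXCL2, CXCL3 or CCL20 was present in 13.6% and 15.0% of SERPINA1-high cells of the controls and in 37.4% and 52.3% with PA. In the other cells without mesenchymal genes the shares were 7.94% and 7.01% in controls and 22.2% and 31.6% with PA, and in mesenchymal-gene cells 7.22%, 3.44%, 6.09% and 11.3%. For CCL20 alone the shares in SERPINA1-high cells were 3.79% and 2.41% in controls and 17.0% and 29.6% with PA, with PA replicate 2 again the higher. Without thinning, the CCL20 shares were 6.10%, 7.33%, 27.3% and 49.97% at the unequal depths given above. LCN2 was found at 1000 UMIs in 1.91% and 1.34% of SERPINA1-high cells with PA and in 0.259% and 0.0277% of those in controls, and BIRC3 in 2.48% and 3.52% against 0.934% and 0.830%. In mesenchymal-gene cells LCN2 was at 0.262% in PA replicate 2 and had no UMI in the other libraries.

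**Figure D4:**
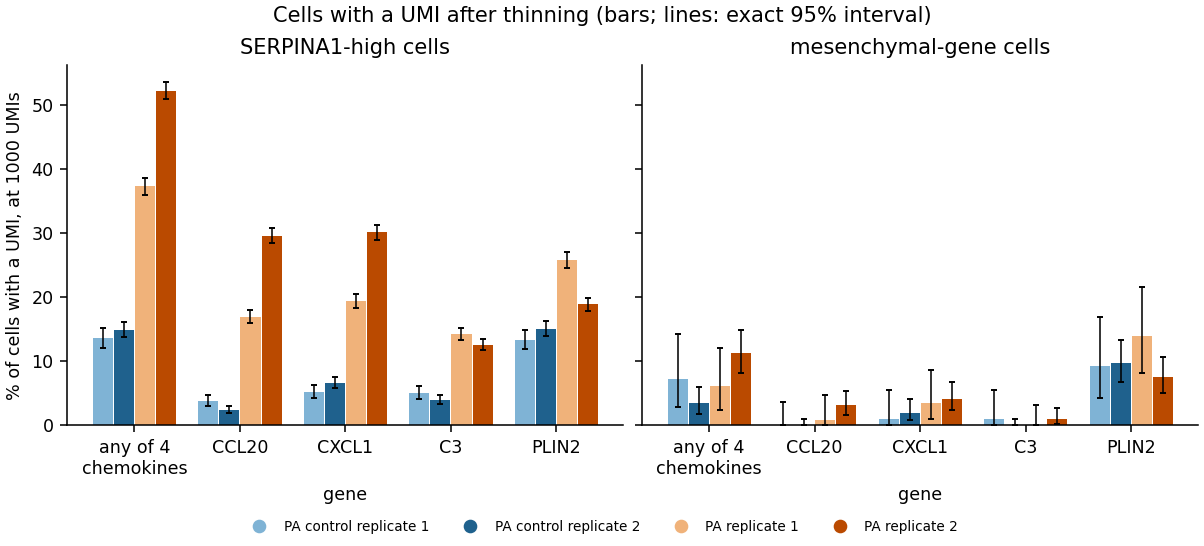
Percent of cells with at least 1 UMI of a gene (y) after thinning to 1000 UMIs per cell, for any of CXCL1, CXCL2, CXCL3 and CCL20 and for 4 single genes (x), in SERPINA1-high cells (left) and mesenchymal-gene cells (right). The mesenchymal-gene cells are those that the rule did not choose. Bars are libraries and lines exact 95% binomial intervals for counting error, and in the left panel both PA bars stand above both control bars for every gene shown.

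Chemokine transcripts went together within cells. In SERPINA1-high cells with a CCL20 UMI, 52.1% and 50.6% of control cells and 64.4% and 69.1% of PA cells also had a UMI of CXCL1, CXCL2 or CXCL3. In cells without one the shares were 10.2%, 12.9%, 24.5% and 32.2%. The split by AFP is a description, since AFP is a gene of the rule. With PA, 40.8% and 58.4% of AFP-positive and 36.3% and 49.9% of AFP-negative cells had a UMI of the 4 chemokines. In controls the shares were 10.7% and 15.4% against 14.8% and 14.8%. With a UMI of C3 the shares were 27.3% and 24.0% in controls and 53.1% and 73.5% with PA, above those in C3-negative cells in all 4 libraries.

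The same genes were examined in the other kept cells. Of the 17 genes, 16 could be tested in them, all 16 had a positive log2 fold change (genes chosen for their rise in SERPINA1-high cells), and CXCL3 and CCL20 were called (2 of 14560 genes, 0.0137%, with 0 lower, 0.0%). At an unadjusted p under 0.05, 232 genes were higher there (1.59%) and 155 lower (1.06%). CCL20 had a log2 fold change of 3.93 there and CXCL1 of 2.70, beside 3.64 and 2.59 in SERPINA1-high cells. A test of the difference between the 2 classes called 0 of the 17 genes. For CCL20 the difference was -0.19 (SE 0.104, adjusted p = 0.887) and for LCN2 0.48 (SE 0.777, adjusted p = 0.995). Levels differed by gene: C3 was at 235 and 191 CPM with PA in SERPINA1-high cells and at 64.4 and 28.8 in the others, while PI3 was at 54.7 and 49.5 and at 49.8 and 41.8.

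Across all genes the PA effect differed between SERPINA1-high and other cells for 64 of 15955 genes (0.401%), with 26 above the other cells (0.163%) and 38 below them (0.238%). The smooth muscle actin gene ACTA2, a marker of contractile mesenchymal cells, was at 4.07, 6.40, 2.84 and 4.97 CPM in SERPINA1-high cells and at 88.8, 205, 27.3 and 34.0 in the others. Its log2 fold change was -0.40 in SERPINA1-high cells and -2.23 in the others (difference 2.03, SE 0.189, adjusted p = 4.83e-05). APOA2 was at 77.2, 31.1, 120 and 134 CPM in the other cells and its log2 fold change was 0.50 in SERPINA1-high cells and 1.27 in the others (difference -0.82, SE 0.104, adjusted p = 0.000644). Without the mesenchymal-gene cells 10 genes were called, and summed mesenchymal markers in the other cells were 1567 and 2994 CPM in controls and 1057 and 1810 with PA. Their part in these differences was not tested.

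No gene of lipid handling passed the test, although several had unadjusted p-values under 0.05. The lipid droplet coat gene PLIN2 was at 157 and 188 CPM in controls and 370 and 251 with PA, a log2 fold change of 0.88 (SE 0.273, adjusted p = 1.00). FABP1 was at 466 and 442 CPM in controls and 791 and 937 with PA (0.95, SE 0.264, adjusted p = 0.764), and ANGPTL4, an inhibitor of lipoprotein lipase, at 11.2 and 20.6 CPM against 31.0 and 41.1 (1.19, SE 0.286, adjusted p = 0.489). The fat oxidation regulators PDK4 and CPT1A had log2 fold changes of 0.94 and 0.61. Both PA libraries lay above both controls in these 5 genes, an order that 8.01% of all tested genes share. Over the list of lipid droplet, fatty acid oxidation and PPAR-alpha genes, 0 of 31 were called, 22 had a positive log2 fold change, 5 had an unadjusted p under 0.05 and the median was 0.11. Of all tested genes, 51.7% were positive and 1.64% were higher at an unadjusted p under 0.05. Fatty acid synthesis genes had 0 of 18 called and a median of -0.01, and sterol synthesis genes 0 of 23 and 0.08.

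Liver identity genes showed no called change. ALB had a log2 fold change of 0.96 (SE 0.265, adjusted p = 0.764) with both PA libraries above both controls, as in 8.01% of all tested genes. The fibrinogen chain FGA was at 21.2 and 21.6 CPM in controls and 13.6 and 14.2 with PA, a log2 fold change of -0.59 (adjusted p = 1.00). Of 19 tested plasma protein genes outside the rule, 0 were called and 13 had a positive log2 fold change, as did 51.7% of all tested genes. The median of these 19 was 0.21 and became -0.13 without control replicate 2. Apolipoprotein genes had 0 of 16 called and a median of 0.18, hepatocyte metabolism genes 0 of 18 and 0.22, and hepatocyte transcription factors 0 of 24 and 0.11. Among these factors CEBPD, a regulator of acute-phase genes, stood apart at 52.5 and 58.7 CPM in controls and 130 and 238 with PA (1.76, SE 0.310, adjusted p = 0.128). At 2 libraries a group, a p above 0.05 does not show that a level stayed the same.

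Among interferon-stimulated genes, 0 of 28 were called, 26 had a positive log2 fold change, 7 an unadjusted p under 0.05 and the median was 0.58. Of all tested genes, 51.7% had a positive log2 fold change and 1.64% were higher at an unadjusted p under 0.05. ISG15 was at 78.6 and 88.9 CPM in controls and 134 and 138 with PA, and IFI6 at 250 and 293 CPM against 588 and 388. Both were higher in both PA libraries, as were 8.01% of all tested genes. Antioxidant and metallothionein genes had 0 of 19 called and a median of 0.44. ER stress genes had 0 of 30 and 0.15, hypoxia and glycolysis genes 0 of 21 and 0.19, cell cycle genes 0 of 23 and 0.01, and gut markers 0 of 14 and 0.07. The gut markers moved both ways, with 7 positive and 7 negative log2 fold changes. At an unadjusted p under 0.05 by edgeR, 4 of the 14 were higher and 1 lower, against 1.64% and 0.832% of all tested genes. Markers of other cells were also followed: ductal and KRT7 markers had 0 of 11 called and a median of 0.31, and mesenchymal markers 0 of 11 and -0.15, with their summed level in SERPINA1-high cells at 298 and 415 CPM in controls and 202 and 303 with PA. Squamous and basal markers had 0 of 5 called and a median of 0.71, with sums of 2.04 and 16.8 CPM in controls and 5.50 and 33.4 with PA. Blood and macrophage markers summed to 327 and 305 CPM in controls and 340 and 515 with PA, against 87.0 to 204 in the other cells, and nearly all of this was lysozyme (LYZ, 294 to 499 CPM), which gut and other secretory epithelium also makes. Endothelial markers summed to 124 to 188 CPM, nearly all from EGFL7 (124 to 188 CPM). Of the defining markers of these lists, the blood marker PTPRC was at 0 to 0.0687 CPM, the endothelial marker CDH5 at 0 to 0.0567, and the macrophage markers C1QA and C1QC had no UMI.

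**Figure D5:**
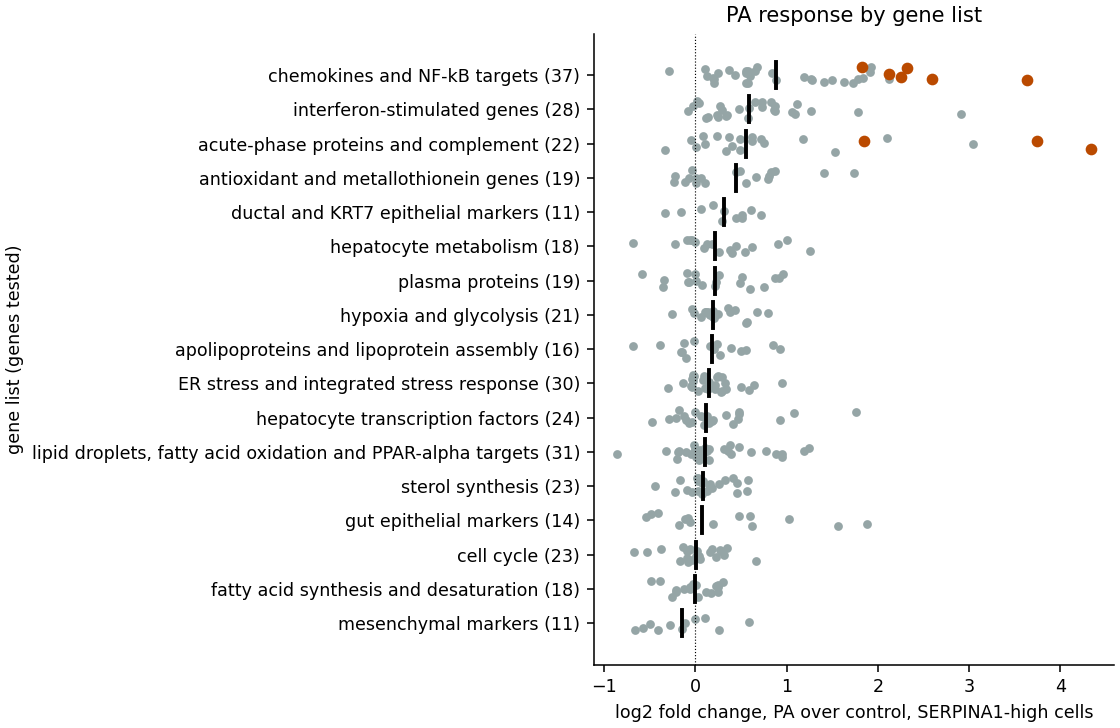
Log2 fold change with PA in SERPINA1-high cells (x) for each tested gene of 17 lists (y, number tested in parentheses), with called genes in orange and the median of each list as a black bar. The chemokine and NF-κB list has the median farthest to the right at 0.88 and 6 called genes, and the acute-phase list has 3. The lists were chosen with earlier results of these data known.

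Genes with the lowest p-values among those that were lower with PA did not pass the threshold. CYP1A1, a target of the aryl hydrocarbon receptor, was at 29.9 and 27.9 CPM in controls and 6.81 and 13.8 with PA (log2 fold change -1.43, SE 0.325, adjusted p = 0.397). ECM1, a secreted matrix protein gene, was at 18.1 and 15.7 CPM against 5.84 and 7.24 (-1.32, SE 0.262, adjusted p = 0.199), and CNTNAP2 at 24.2 and 33.1 CPM against 12.2 and 14.7 (-1.06, SE 0.242, adjusted p = 0.400). KRT81, AC092894.1, MUCL1, NKAIN4 and MYOF had log2 fold changes of -3.48 to -0.85. Both PA libraries lay below both controls in the 8, as in 14.1% of all tested genes.

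Leaving SERPINA1 out of the rule gave a smaller population. The cells that met the cutoffs without SERPINA1 (334, 638, 819 and 804 cells, a choice made after the weight of SERPINA1 was seen) held more of both liver and gut transcripts than the remaining SERPINA1-high cells. TTR was at 8225 and 5193 CPM in controls and 8540 and 9847 with PA, against 1102 to 1535 in the remaining cells, and ALB at 203, 286, 458 and 735 CPM against 7.16 to 12.3. Summed gut markers were at 4780, 3228, 3446 and 4673 CPM against 718 to 1019. The neuroendocrine marker chromogranin A (CHGA) was at 4278 and 868 CPM in controls and 3130 and 2624 with PA, against 329 to 708. Other defining hepatocyte products were also at or near 0 in these 4-gene cells, as they are called here: TF, FETUB, CYP3A4 and CYP7A1 had no UMI, AHSG was at 0 to 0.164 CPM, SERPINC1 at 0 to 0.919 and ARG1 at 0 to 1.20.

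In these 4-gene cells PA was followed by 26 higher genes of 12373 tested (0.21%) and 0 lower (0.0%) by edgeR. At an unadjusted p under 0.05, 265 were higher (2.14%) and 108 lower (0.873%). Of the 17 genes called in all SERPINA1-high cells, 10 were among the 26, and 15 of 15 that could be tested had a positive log2 fold change. The 4-gene cells are part of the SERPINA1-high cells in which the 17 were chosen for their rise, so this overlap is not independent. CXCL8 (adjusted p = 0.0196), CXCL5 (0.0219), ICAM1 (0.0135) and CEBPD (0.0243) were called here but not in all SERPINA1-high cells. CCL20 was at 75.4 and 50.7 CPM in controls and 640 and 1802 with PA (4.35, SE 0.480, adjusted p = 0.00161). Calls numbered 86 and 40 with control replicates 1 and 2 left out in turn, and 263 and 70 with PA replicates 1 and 2 left out.

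Of 7 listed metallothionein genes, which encode small metal-binding proteins, MT2A, MT1G and MT1E were called, MT1F (adjusted p = 0.076) and MT1X (adjusted p = 0.169) were not, and MT1H and MT1M were not tested. MT2A had 0 and 14 UMIs in the 4-gene cells of the controls, or 0 and 2.30 CPM, and 90 and 759 UMIs with PA, or 31.4 and 116 CPM (log2 fold change 5.34, SE 0.699, adjusted p = 0.00435). Its size rests on the 14 UMIs of control replicate 2, without which the fitted value was 11.00 against a control of 0 UMIs. All other kept cells of the same libraries had 68.8 and 66.0 CPM in controls and 42.2 and 96.2 with PA. MT1G had 1 and 1 UMIs in controls and 62 and 162 with PA, a ratio of CPM of 82.6 with a counting interval of 22.6 to 686. In controls the 4-gene cells lay below all other cells in MT2A, and with PA the ranges overlapped.

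The PA effect differed between the 4-gene cells and all other kept cells for 32 of 14028 genes, with 29 above the other cells (0.207%) and 3 below them (0.0214%). Leaving out 1 library gave 184, 57, 59 and 57 called differences (control replicates 1 and 2, PA replicates 1 and 2). The difference was called for MT2A (5.09, SE 0.328, adjusted p = 5.43e-09, and 13.24 without control replicate 2), MT1G (adjusted p = 1.9e-06) and MT1E (adjusted p = 5.45e-05), for all of which controls held too few UMIs to fix its size. MT1E had 0 and 1 UMIs in controls and 20 and 142 with PA, a ratio of CPM of 119.5 with a counting interval of 21.1 to 4749. Each of the 3 kept a call with any 1 of the 4 libraries left out. In all other kept cells SAA1 was at 32.4 and 5.41 CPM in controls and 9.55 and 33.3 with PA. In the 4-gene cells SAA1 had no UMI in the controls and 20 and 67 UMIs with PA. That was at least 21.4-fold higher in CPM against a floor of 3 counts over the group. Its PA effect lost the call without control replicate 2 (adjusted p = 0.152), while the difference between classes kept it (adjusted p = 0.0126). How reads were divided between the similar metallothionein genes, as between SAA1 and SAA2, is not given in the sources. CXCL1 (0.70, adjusted p = 0.012) and CCL20 (0.68, adjusted p = 0.0132) also rose more in the 4-gene cells. CCL20 lost that call without PA replicate 1 (0.72, adjusted p = 0.094) or PA replicate 2 (0.66, adjusted p = 0.123), and CXCL1 without PA replicate 2 (0.61, adjusted p = 0.284).

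GUCA2B, SCT and ZG16 were also called in that comparison and are named after their values were seen. Uroguanylin (GUCA2B), a peptide of intestinal epithelium, was at 7.18 and 5.74 CPM in the 4-gene cells of the controls and 29.6 and 52.2 with PA, while all other cells had 21.0 and 13.7 CPM against 13.3 and 9.32. The difference of log2 fold changes was 3.29 (SE 0.364, adjusted p = 4.55e-05). Secretin (SCT) was at 67.0 and 37.7 CPM in controls and 128 and 149 with PA in the 4-gene cells (difference 1.71, SE 0.206, adjusted p = 0.000119). Its PA effect within the 4-gene cells was not called (1.51, adjusted p = 0.133), and without control replicate 2 the difference was 0.99 (adjusted p = 0.0462). Guanylin (GUCA2A) was called higher with PA within the 4-gene cells (log2 fold change 2.81, SE 0.347, adjusted p = 0.00252 by edgeR). It was at 13.2 and 25.4 CPM in controls and 114 and 171 with PA. All other cells had 12.9 and 21.3 CPM in controls and 60.3 and 39.2 with PA, and the difference for GUCA2A was not called (1.36, adjusted p = 0.073). The goblet cell lectin ZG16 went the other way. It was at 10.8 and 60.7 CPM in controls and 11.5 and 13.5 with PA in the 4-gene cells. All other cells had 0.993 and 4.18 CPM in controls and 43.7 and 24.4 with PA (difference -5.11, SE 0.268, adjusted p = 1.99e-10). Within the 4-gene cells the PA effect on ZG16 was not called (-1.63, adjusted p = 0.544), and it was 0.22 without control replicate 2. Markers of other cell types were among the 29 as well: COL1A1, COL1A2, LUM, ACTA2, KRT5 and KRT17 were at 0 to 49.9 CPM in the 4-gene cells. Their part in the other differences was not tested.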

How the data were processed

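Single-cell RNA counts of 4 libraries were used, 2 of PA and 2 of its control. The deposited files hold UMI counts per gene and barcode as whole numbers, made by the authors with Cell Ranger 3.0.2 on GRCh38 per the submitters' processing notes and, for the software version, per the file headers; bcl2fastq and Scanpy are also named in the notes, with no version. The sources used here do not say how reads shared by several genes, or reads in introns, were counted. The total count per library was 7476533, 46005816, 24458871 and 59163747 UMIs over all deposited barcodes (control replicates 1 and 2, PA replicates 1 and 2).

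Cells of at least 500 genes and at most 20% mitochondrial UMIs were kept, the 5-gene rule was applied, and counts were summed per library and class. These sums were tested with edgeR 4.0.16 in R 4.3.3 (filterByExpr, TMM, quasi-likelihood test, Benjamini-Hochberg threshold 0.05). Each SE given for an edgeR result is the absolute log2 fold change divided by the square root of the F statistic of the test. It is derived from the test and is not a separate estimate. The difference of effects was tested in 1 fit with library as a block and a class by treatment term. DESeq2 1.42.0 was an alternative, as were other normalizations, filters, marker rules, doublet removal, thinning and leaving out each library. The rule without SERPINA1 was added after seeing the data. The main edgeR fits of the PA effect and of the difference of effects were tested on simulated counts, and the alternative fits were not. Scrublet (scanpy 1.11.5, Python 3.11.15) marked 0 to 0.0312% of cells by its automatic threshold, so as an alternative the top-scoring 3.24% to 7.26% of cells were removed (0.8% per 1000 barcodes). For shares of cells with a UMI, each cell was thinned to 1000 UMIs, which left out 361, 424, 526 and 234 shallower cells. Binomial intervals are exact (scipy 1.17.1), at 95%, and cover counting error only.

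Genes named as higher were those called, not overlapping between groups and with a mean of at least 20 CPM in 1 group, up to 12. For falls, where fewer than 8 passed, those of smallest p filled up to 8. Profile genes were the 20 of highest lowest ratio among genes of at least 100 CPM, and list genes were named as examples. The members and lists were chosen with earlier results of these data known. Gene positions are from GENCODE 44 on GRCh38.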

Additional observations from a re-analysis of the deposited data

Results flagged for a closer look

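A test of the difference of PA effects between SERPINA1-high and other cells (edgeR, 15955 genes) called 64 genes, and the 10 with the largest differences are given by the naming rule. In each, the difference of log2 fold changes is SERPINA1-high minus other cells. Those above the other cells were ACTA2 at 2.03, PTGES, an enzyme of prostaglandin E2 synthesis, at 1.81, the keratin KRT16 at 1.66, MMP23B at 1.39 and the plasma protein gene ITIH2 at 1.33. ITIH2 was at 19.3 and 36.9 CPM in controls and 33.0 and 31.2 with PA in SERPINA1-high cells, and at 3.05 and 6.18 against 2.10 and 2.13 in the others. KRT16 was at 2.65, 8.23, 3.8 and 15.3 CPM in SERPINA1-high cells and at 56.4, 136, 42.2 and 62.7 in the others.

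Those below the other cells were the secreted phospholipase gene PLA2G2A at -2.94, CYP1A1 at -1.98, C15orf48 at -1.61, the neuropeptide gene GAL at -1.58 and the trypsinogen gene PRSS1 at -1.42. PLA2G2A was at 41.9, 34.3, 27.1 and 54.6 CPM in SERPINA1-high cells and went from 10.7 and 1.91 to 27.7 and 30.8 CPM in the others. C15orf48 was at 30.1, 26.9, 23.8 and 35.3 CPM in SERPINA1-high cells and went from 8.12 and 7.10 to 24.1 and 25.2 CPM in the others.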

How the results depend on the processing

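The fit called 17 genes with PA, and the total number called was 13 to 20 under doublet removal, a stricter cell filter, a stricter marker rule, marker choice on thinned cells, mesenchymal-gene cells left out, RLE or total-count scaling and a fit of all 14 shaker libraries. It was 26 with the marker rule without SERPINA1, 119 with no filter on low counts (7 of them lower) and 40 with DESeq2, and 4 to 380 when 1 library was left out. For the difference of effects (64 genes), the count was 165 with a stricter cell filter, 98 with a stricter marker rule, 10 without mesenchymal-gene cells, 32 with the rule without SERPINA1, 240 with no filter, 16 with DESeq2 and 86 to 209 when 1 library was left out. The difference in share (3.47 points) reversed to -0.889 with the stricter cell filter and to -0.549 with the rule without SERPINA1, and was 2.71 to 4.23 when 1 library was left out. Except where a setting by construction tests fewer libraries or more genes, the cause was not tested. With the replicate number as a block (replicate block), 62 genes were called (59 higher, 3 lower) and the share difference was 3.47. All 12 named genes kept their call with the block, 11 did with the stricter cell filter, 10 without mesenchymal-gene cells, 9 with the rule without SERPINA1 and 8 in the fit of 14 libraries. The labels give only a shared number, and deviations of same-numbered libraries had a correlation of 0.139 over 16221 genes. The block could not be added to the difference fit, where library is already a block. Depth limits the low genes: control replicate 1 held 4910980 UMIs in SERPINA1-high cells.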
